A study of Homo sapiens with 9 samples.

Results

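The genes described here are 10 sensors and effectors of the cell-intrinsic defence against viral RNA: the RIG-I-like receptor genes DDX58, IFIH1 and DHX58, the oligoadenylate synthetase family genes OAS1, OAS2, OAS3 and OASL, and IFIT1, IFIT2 and IFIT3. They were chosen by gene symbol and all 10 are among the 58735 genes of the deposited count table. RNA was sequenced from HEK293A cells, an adherent line derived from human embryonic kidney, in which p65, the NF-kB subunit encoded by RELA, had been knocked out. The 3 groups were knockout cells transfected with an empty vector (libraries 1 to 3), with p65 WT (libraries 4 to 6) or with p65 2CS (libraries 7 to 9), a form whose change is not spelled out in the labels beyond a series title that concerns p65 palmitoylation. All 9 libraries came from cells given TNF at 20 ng/mL for 2 h, starting 24 h after transfection, so each comparison is between TNF-treated cells and none shows the response to TNF. The labels do not say whether the knockout line is 1 clone, and they do not tell whether replicate libraries stem from different cultures. The spread behind every p-value is therefore that between these samples and may be technical.

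RIG-I (DDX58, now also called RIGI) and MDA5 (IFIH1) bind viral double-stranded RNA in the cytoplasm and signal through the mitochondrial adaptor MAVS to the kinases TBK1 and IKBKE, which activate IRF3 and IRF7, and to NF-kB. LGP2 (DHX58) is the related helicase that lacks the signalling domains and tunes the other receptors. The OAS enzymes respond to double-stranded RNA by making oligoadenylates, second messengers of the antiviral state, OASL is a family member without that enzyme activity, and the IFIT proteins bind viral RNA or each other and restrain its translation. All of these genes are classical targets of type I interferon, which acts through promoter elements called ISREs. NF-kB binds kB sites and takes part in switching on the interferon beta gene itself.

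Library totals were 15989601 to 25068515 counts. RELA, which checks the labels, lay at 65.8 to 68.9 CPM (the count scaled to a library total of 1000000, with TMM factors) in vector cells, 8023 to 9904 CPM in p65 WT cells and 24000 to 26730 CPM in p65 2CS cells, so the 2CS cells held more RELA transcript than the WT cells. Form and amount of RELA transcript thus differ together between these groups. In every comparison of p65 2CS with p65 WT below, the 2 cannot be told apart. These reads cannot separate plasmid from locus, and protein was not measured. Among cell type markers, 8 of early kidney summed to 75.5 to 76.7 CPM in vector cells, 104.9 to 112.3 CPM in p65 WT cells and 80.3 to 88.4 CPM in p65 2CS cells. Of these 7 were at or above 1 CPM in vector cells. The 9 markers of mature kidney cells differed by group, with sums of 12.1 to 13.03, 58.6 to 66.9 and 16.7 to 17.3 CPM in the same order, although AQP2 and UMOD had no read in any group. The 7 endothelial and fibroblast markers summed to 80.2 to 88.3, 119.6 to 122.4 and 81.5 to 84.9 CPM; of 6 tested, 3 were called higher with p65 WT against vector, and 2 higher and 1 lower with p65 2CS against vector. CDH5 among them went from 0.0977 CPM in vector cells to 10.5 CPM in p65 WT cells and 2.38 CPM in p65 2CS cells. The 8 neural markers summed to 971.9 to 1008, 906.5 to 935.7 and 888 to 918.4 CPM, nearly all of it NEFL (897.8, 840.2 and 822.8 CPM); of 6 tested, 2 were higher and 2 lower with p65 WT, with NEFM going from 0.253 to 1.75 CPM, and 0 higher and 2 lower with p65 2CS. The 8 leukocyte markers summed to 4.50 to 5.01, 5.38 to 6.48 and 5.91 to 6.47 CPM; PTPRC, which defines leukocytes, had no read in vector or p65 WT cells, while ITGAM was called higher with each form, at 0.420, 2.23 and 1.45 CPM. CDH5, NEFM, ITGAM and the neural marker INA lay below the level set by the expression filter (0.558 CPM) in every vector library. They were tested through the p65 groups alone, so their calls against vector are descriptions. The part of the cell type markers in the results was not tested. In bulk RNA, a larger share of responding cells and more RNA per cell cannot be told apart.

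The promoter sequences are shown as a description. Whether any motif in them bears on the levels with the 2 forms of p65 was not tested. RefSeq entries (GRCh38.p14) were found for 6 of the 10 genes, the others being DHX58, OAS2, OASL and IFIT2, and the 250 bases before each listed start were searched on both strands for an ISRE core (GAAA, any 2 bases, then GAAA) and for the kB consensus. Capitals mark the matches. The windows of the 3 genes with a kB match come first, then those of IFIT1 and IFIT3 and that of OAS1, a neighbour of OAS3 that was almost without reads.
DDX58, chr9:32526197-32526446, minus strand: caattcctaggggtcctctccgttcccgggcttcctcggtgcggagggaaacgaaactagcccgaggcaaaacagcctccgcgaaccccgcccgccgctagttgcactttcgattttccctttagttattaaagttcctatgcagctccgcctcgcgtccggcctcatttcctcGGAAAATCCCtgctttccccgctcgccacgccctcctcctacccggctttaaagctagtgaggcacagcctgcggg
IFIH1, chr2:162318685-162318934, minus strand: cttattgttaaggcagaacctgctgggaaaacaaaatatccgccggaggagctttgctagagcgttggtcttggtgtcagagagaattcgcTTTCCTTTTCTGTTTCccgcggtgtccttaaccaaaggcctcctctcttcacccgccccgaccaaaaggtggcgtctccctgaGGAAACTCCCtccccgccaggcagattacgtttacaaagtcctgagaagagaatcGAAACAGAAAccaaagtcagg
OAS3, chr12:112938224-112938473, plus strand: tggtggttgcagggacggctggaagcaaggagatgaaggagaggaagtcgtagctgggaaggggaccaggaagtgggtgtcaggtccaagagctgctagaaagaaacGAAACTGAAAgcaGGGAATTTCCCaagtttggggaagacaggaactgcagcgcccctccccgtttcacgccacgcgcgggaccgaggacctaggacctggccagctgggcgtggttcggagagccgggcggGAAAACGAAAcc
IFIT1, chr10:89392373-89392622, plus strand: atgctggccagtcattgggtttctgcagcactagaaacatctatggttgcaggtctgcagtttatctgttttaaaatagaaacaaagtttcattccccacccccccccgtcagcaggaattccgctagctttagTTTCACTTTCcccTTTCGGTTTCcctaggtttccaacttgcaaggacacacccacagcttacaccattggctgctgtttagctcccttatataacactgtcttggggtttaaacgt
IFIT3, chr10:89327747-89327996, plus strand: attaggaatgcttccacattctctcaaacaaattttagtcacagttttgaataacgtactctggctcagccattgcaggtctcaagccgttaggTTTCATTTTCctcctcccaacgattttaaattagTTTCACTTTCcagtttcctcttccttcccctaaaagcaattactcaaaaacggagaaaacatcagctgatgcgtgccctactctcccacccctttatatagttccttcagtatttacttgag
OAS1, chr12:112906712-112906961, plus strand: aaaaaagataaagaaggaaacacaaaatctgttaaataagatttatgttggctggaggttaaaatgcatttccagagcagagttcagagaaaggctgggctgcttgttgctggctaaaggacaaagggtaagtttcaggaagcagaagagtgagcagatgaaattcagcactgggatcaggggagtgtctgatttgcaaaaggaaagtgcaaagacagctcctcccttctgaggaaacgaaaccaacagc
A kB consensus stood in the windows of DDX58, IFIH1 and OAS3. In DDX58 and in IFIH1 it lay on the strand opposite to the gene, at bases 76 to 67 before the start in each, reading GGGATTTTCC and GGGAGTTTCC. In OAS3 overlapping matches on both strands covered bases 130 to 120. ISRE cores numbered 3 in IFIH1, where a pair overlapped and the third lay at bases 21 to 12, and 2 each in OAS3, IFIT1 and IFIT3. IFIT3 has a further listed start, and its window held another 2 ISRE cores and no kB consensus. No match to either motif was found in the OAS1 window, and none to the ISRE core in that of DDX58. This says only that these letters are not in those windows, and near matches were not searched for. Over all 35116 promoter windows of this length, 3.02% held an ISRE core, 9.96% a kB consensus and 0.202% held both, as IFIH1 and OAS3 did. A match is a description and not a measured binding site.

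Of the 10 genes, 7 had enough reads to be tested among 18195 genes. Of these, 6 reached the expression filter's level of 0.558 CPM in every library, and IFIT2 reached it in no vector library and was tested through the p65 groups alone, so its folds against vector are given as descriptions. The 6 were all called higher with p65 WT than with vector, and 4 of them higher with p65 2CS than with vector. Set against each other, the forms divided the genes: IFIH1, OAS3, IFIT1 and IFIT3 were lower with p65 2CS than with p65 WT, while DDX58 was higher. Summed over all 10 genes the level was 43.4 ± 1.78 CPM in vector cells, 93.6 ± 1.72 CPM in p65 WT cells and 73.9 ± 4.99 CPM in p65 2CS cells (mean ± SD, n = 3 each). OAS3 alone made up 63.8%, 61% and 58.2% of these sums, so their order is mostly that of OAS3. DDX58 stood in another order, as did the means of IFIT2, which was not called between the forms. Over all genes tested, 29.5% were called in p65 WT against vector (16.5% higher, 12.9% lower), 24% in p65 2CS against vector (12.3% higher, 11.7% lower) and 31.7% in p65 2CS against p65 WT (13.7% higher, 18% lower), at an edgeR adjusted p under 0.05. The median log2 fold of the 6 was 1.08, 0.77 and -0.65 in these comparisons, beside -0.02, 0 and 0 over all genes tested. Library ranges did not overlap for 6 of the 6 in p65 WT against vector, all higher, where 20.3% of all genes stood higher and 20.2% lower without overlap. They did not overlap for 4 of the 6 in p65 2CS against vector, all higher (18.5% higher and 18.1% lower over all genes), and for 6 of the 6 between the forms, 1 higher and 5 lower (19% and 21.7%). Scaling by library totals and no TMM factor had this effect: the genes called in p65 WT against vector turned from 3010 higher and 2350 lower to 2583 higher and 3737 lower, and those in p65 2CS against p65 WT from 2488 higher and 3280 lower to 3187 higher and 2869 lower. No call for the 10 genes changed with that scaling.

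**Figure D1:**
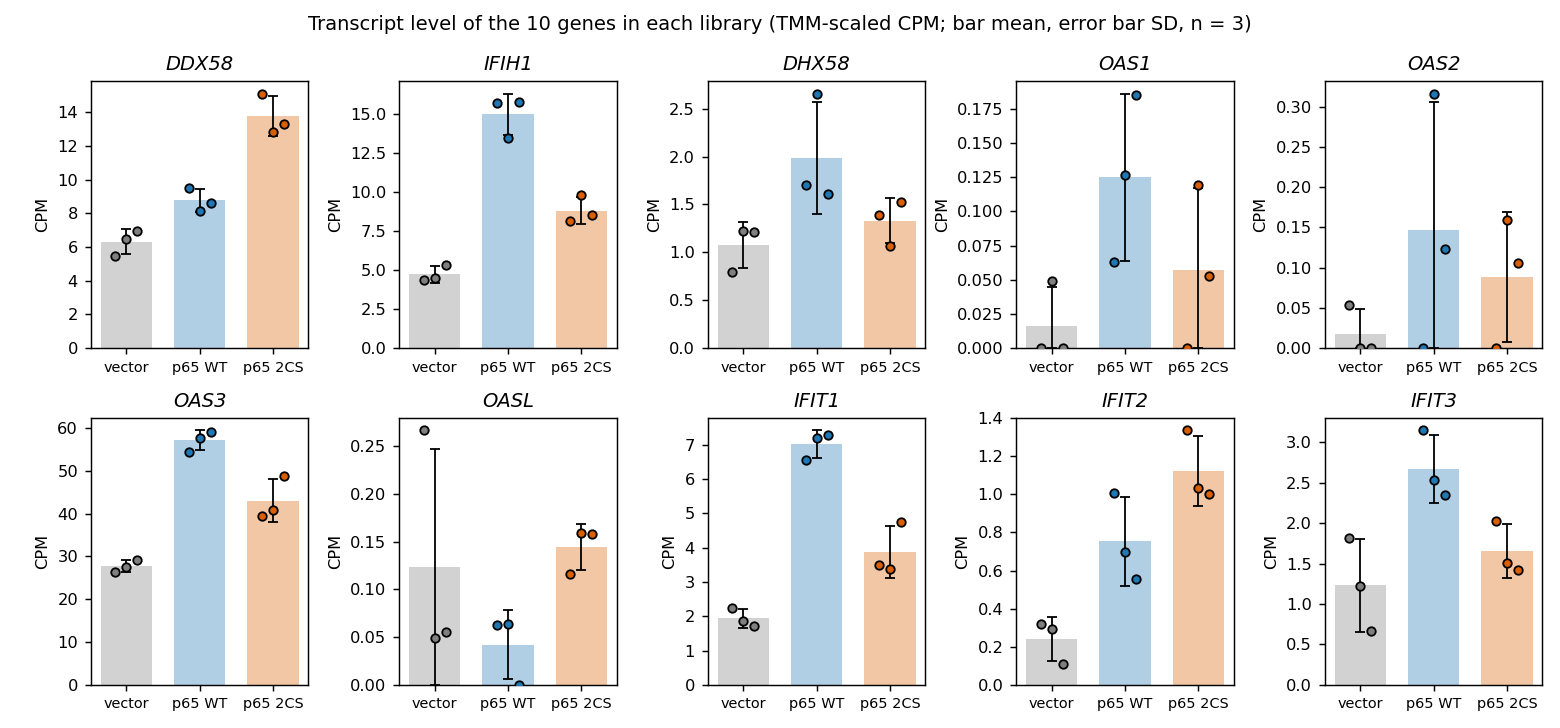
Level of each of the 10 genes in every library, in CPM on a linear axis that starts at 0 and differs between panels; points are libraries, bars the mean and error bars the SD (n = 3), cut off at 0. DDX58 stands highest with p65 2CS, as does the mean of IFIT2, which overlapped p65 WT and was not called between the forms. IFIH1, OAS3, IFIT1 and IFIT3 stand highest with p65 WT, and OAS1, OAS2 and OASL stay below 0.32 CPM.

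Among the receptors, IFIH1 (MDA5; chromosome 2, 162267079 to 162318703, minus strand) lay at 4.37, 4.50 and 5.35 CPM in vector cells, at 15.7, 13.5 and 15.8 CPM in p65 WT cells and at 8.13, 9.80 and 8.52 CPM in p65 2CS cells. The 3 groups did not overlap, with p65 WT highest and vector lowest. Its log2 fold was 1.66 ± 0.13 (standard error) with p65 WT against vector, or 3.17-fold (edgeR adjusted p = 7.9e-20). With p65 2CS against vector it was 0.91 ± 0.13, or 1.87-fold (adjusted p = 5.3e-08). IFIH1 was 1.69-fold lower with p65 2CS than with p65 WT (log2 fold -0.76 ± 0.12, adjusted p = 9e-08).

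DDX58 (RIG-I; chromosome 9, 32455705 to 32526324, minus strand) ran the other way between the forms. It lay at 5.49, 6.50 and 6.95 CPM in vector cells, at 9.51, 8.16 and 8.64 CPM in p65 WT cells and at 15.1, 12.9 and 13.3 CPM in p65 2CS cells. Here too the groups did not overlap, but p65 2CS was highest. DDX58 was 1.39-fold higher with p65 WT than with vector (log2 fold 0.47 ± 0.13, adjusted p = 0.0024) and 2.17-fold higher with p65 2CS than with vector (1.12 ± 0.12, adjusted p = 1.6e-12). Between the forms it was 1.56-fold higher with p65 2CS (0.64 ± 0.12, adjusted p = 4.7e-06). Among the 18195 genes tested, 50 (0.275%) were called higher than vector with each form and higher with p65 2CS than with p65 WT, and DDX58 is the 1 member among them. The opposite order, higher than vector with each form and lower with p65 2CS than with p65 WT, was held by 570 genes (3.13%), among them IFIH1, OAS3 and IFIT1.

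The balance between these receptors can be read within each library. The ratio of DDX58 to IFIH1 counts within a library, which no scaling of libraries can change, was 1.26, 1.45 and 1.30 with vector. It was 0.604, 0.606 and 0.547 with p65 WT and 1.86, 1.31 and 1.56 with p65 2CS. The p65 WT ratios lay below all others, and those of vector and p65 2CS overlapped. This ratio was chosen after the values were seen and is given without a test.

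DHX58 (LGP2; chromosome 17, 42101404 to 42112733, minus strand) was the scarcest receptor transcript, at 0.799, 1.22 and 1.21 CPM in vector cells, 1.70, 2.66 and 1.60 CPM in p65 WT cells and 1.39, 1.07 and 1.53 CPM in p65 2CS cells. The p65 WT libraries lay above those of both other groups, with library 5 far above its own group, while the ranges of p65 2CS and vector overlapped. DHX58 rose by 0.87 ± 0.31 on the log2 scale with p65 WT against vector (edgeR adjusted p = 0.022), and the call did not hold without p65 WT library 5 (0.61, adjusted p = 0.21) or without vector library 1 (0.70, adjusted p = 0.12). Its log2 fold was 0.28 with p65 2CS against vector (adjusted p = 0.58, 95% interval -0.33 to 0.90) and -0.59 between the forms (adjusted p = 0.12, 95% interval -1.17 to -0.01, not adjusted). Neither passed the threshold, and the intervals leave room for a change of more than 1.5-fold in at least 1 direction.

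**Figure D2:**
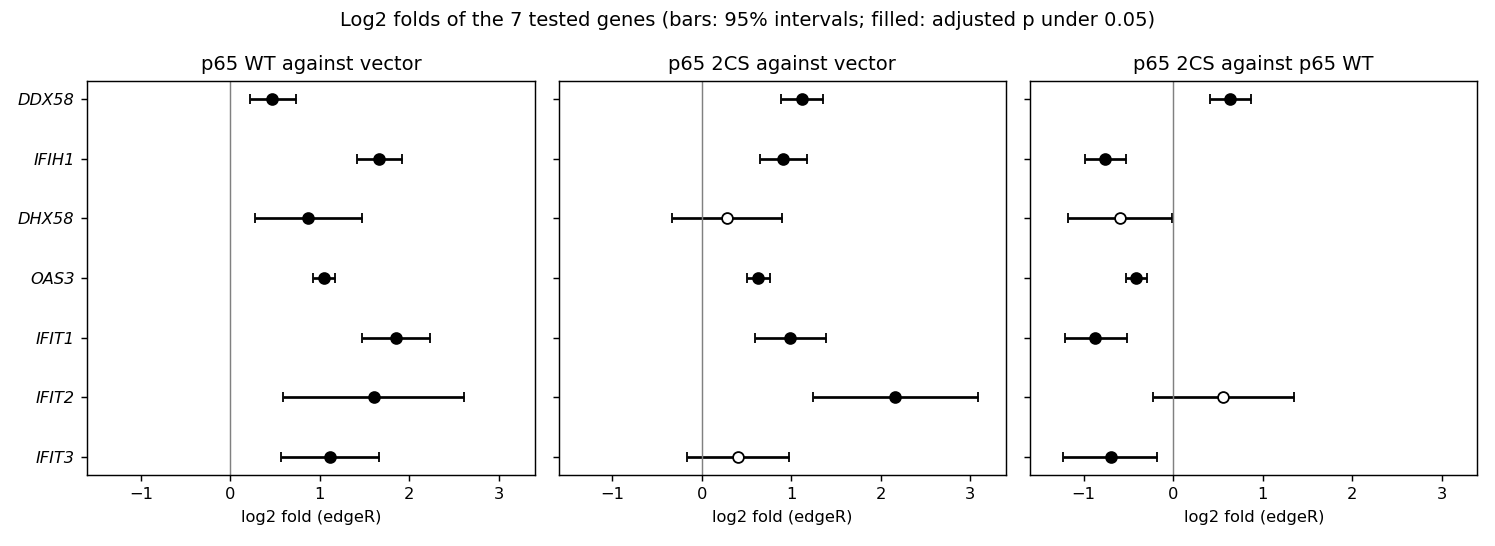
Log2 fold of each tested gene in the 3 comparisons, from the edgeR fit of all 9 libraries; bars span the 95% interval, which is not adjusted, and filled points have an adjusted p under 0.05 (for IFIT2 against vector, a description). In the comparison of the forms DDX58 lies to the right of 0 at 0.64, and IFIH1, OAS3, IFIT1 and IFIT3 lie to its left, from -0.41 to -0.87.

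Nearly all OAS family reads came from OAS3. The gene (chromosome 12, 112938352 to 112973249, plus strand), the largest of the synthetases, lay at 26.4, 27.5 and 29.3 CPM in vector cells, 54.5, 57.8 and 59.1 CPM in p65 WT cells and 39.5, 40.8 and 48.8 CPM in p65 2CS cells. The groups did not overlap and p65 WT was highest. OAS3 was 2.06-fold higher with p65 WT than with vector (log2 fold 1.04 ± 0.06, edgeR adjusted p = 3.8e-24) and 1.55-fold higher with p65 2CS than with vector (0.63 ± 0.06, adjusted p = 6.8e-13). It was 1.33-fold lower with p65 2CS than with p65 WT (-0.41 ± 0.06, adjusted p = 4e-08).

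OAS1 and OAS2 flank OAS3 on the same strand, within a span of 105 kb (OAS1 from 112906777 to 112933222, OAS2 from 112978395 to 113011723), and were almost without reads. OAS1 had 0, 1 and 0 counts with vector, 1, 2 and 3 with p65 WT and 0, 3 and 1 with p65 2CS. OAS2 had 1, 0 and 0 counts with vector, 0, 5 and 2 with p65 WT and 0, 4 and 2 with p65 2CS. OAS3 had 496 to 562 counts in the vector libraries alone. The ratio of p65 WT to vector was 6.97 for OAS1 and 8.14 for OAS2, with exact 95% counting intervals (Clopper-Pearson) of 0.846 to 321 and of 1.05 to 367. They pool the counts of each group and cover counting error alone, without the spread between libraries. Reads that carry no molecular identifier need not be separate molecules, so the intervals may be too narrow. OASL (chromosome 12, 121019111 to 121039242, minus strand) had 5, 1 and 1 counts with vector, 1, 1 and 0 with p65 WT and 2, 4 and 3 with p65 2CS. Its ratio of p65 2CS to p65 WT was 3.58 with a counting interval of 0.741 to 34. Fitted without a filter on low counts, none of these 3 genes passed in any of the 3 comparisons, with edgeR adjusted p of 0.29 or more and unadjusted p of 0.075 or more. DESeq2 called none of them where it gave an adjusted p (0.30 or more); it gave none in p65 2CS against vector. No call was thus made for these 3 genes, and the counting intervals are wide.

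The IFIT genes lie in a row on the plus strand of chromosome 10, in the order IFIT2 (89283694 to 89309276), IFIT3 (89327894 to 89340971), IFIT1B, IFIT1 (89392546 to 89406486) and IFIT5, over 137 kb. IFIT1, which recognises viral RNA by its cap, lay at 2.24, 1.86 and 1.71 CPM in vector cells, 6.55, 7.21 and 7.28 CPM in p65 WT cells and 3.49, 3.37 and 4.74 CPM in p65 2CS cells. The groups did not overlap, and p65 WT was highest. It was 3.62-fold higher with p65 WT than with vector (log2 fold 1.85 ± 0.19, edgeR adjusted p = 1.6e-13) and 1.99-fold higher with p65 2CS than with vector (0.99 ± 0.20, adjusted p = 7.9e-05). Between the forms IFIT1 was 1.82-fold lower with p65 2CS (-0.87 ± 0.17, adjusted p = 3.5e-05).

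IFIT3, which binds IFIT1 and stabilises it, lay at 1.81, 1.22 and 0.662 CPM in vector cells, 3.15, 2.53 and 2.35 CPM in p65 WT cells and 2.03, 1.51 and 1.42 CPM in p65 2CS cells. The p65 WT libraries lay above the other 6, whose ranges overlapped. IFIT3 was 2.16-fold higher with p65 WT than with vector (log2 fold 1.11 ± 0.28, edgeR adjusted p = 0.001). With p65 2CS against vector it did not pass (0.41 ± 0.29, adjusted p = 0.34, 95% interval -0.16 to 0.97). It was 1.63-fold lower with p65 2CS than with p65 WT (-0.70 ± 0.27, adjusted p = 0.034), and this was no longer called without p65 WT library 4 (-0.57, adjusted p = 0.17) or 5 (adjusted p = 0.055), without p65 2CS library 8 (-0.64, adjusted p = 0.12) or 9 (-0.61, adjusted p = 0.11), without a filter (adjusted p = 0.051) and in DESeq2 (adjusted p = 0.083).

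IFIT2, another RNA-binding member of the family, was the scarcest tested gene, at 6, 6 and 2 counts with vector, 16, 11 and 9 with p65 WT and 23, 26 and 19 with p65 2CS. In CPM these were 0.320, 0.293 and 0.110, then 1.01, 0.696 and 0.555, then 1.34, 1.03 and 1.00. Both p65 groups lay above vector, and p65 2CS overlapped p65 WT by 1 library, number 4. The log2 fold was 2.16 ± 0.47 with p65 2CS against vector and 1.60 ± 0.52 with p65 WT against vector, given with no test because the gene was kept only for its level in the p65 groups. Between the forms it did not pass (0.56 ± 0.40, adjusted p = 0.30, 95% interval -0.22 to 1.35). The ratio of IFIT2 to IFIT1 counts within a library was 0.143, 0.158 and 0.0645 with vector, 0.154, 0.0965 and 0.0763 with p65 WT and 0.383, 0.306 and 0.211 with p65 2CS. The p65 2CS ratios lay above the other 6. This ratio too was chosen after the values were seen and is given without a test. IFIT2 shares 356 of its 4101 exon bases with AL353751.1, which had 4 counts over the 9 libraries, and 65 with LIPA on the other strand, which had 12075, so a few of its reads are uncertain because the strand setting of the counting is not known.

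**Figure D3:**
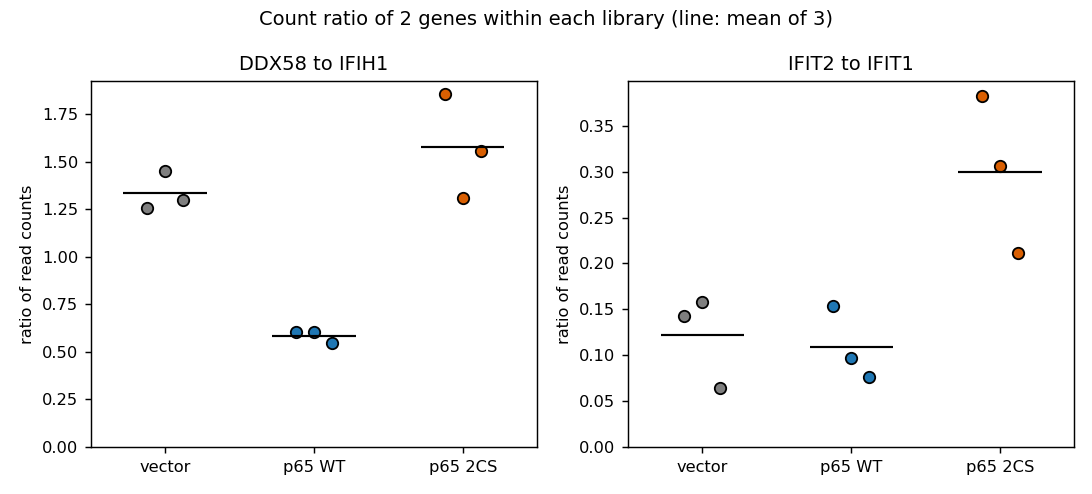
Ratio of the read counts of DDX58 to IFIH1 (left) and of IFIT2 to IFIT1 (right) within each library, on linear axes from 0; points are libraries and lines the mean of 3. The p65 WT libraries sit at 0.547 to 0.606 in the left panel, below all others, and the p65 2CS libraries at 0.211 to 0.383 in the right panel, above all others.

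The other genes of the IFIT row were measured too. IFIT5, a family member with much higher counts, lay at 44.1, 41.6 and 44.7 CPM in vector cells, 36.0, 38.0 and 36.5 CPM in p65 WT cells and 38.6, 41.9 and 37.7 CPM in p65 2CS cells. It fell with p65 WT (log2 fold -0.24 ± 0.06, edgeR adjusted p = 0.0011) and did not pass with p65 2CS against vector (-0.14 ± 0.06, adjusted p = 0.081, 95% interval -0.25 to -0.02, not adjusted). IFIT1B and the pseudogene IFIT6P had no read in any library.

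Per kilobase of gene length, which allows levels to be compared between genes, OAS3 stood first in each group at 3.36 CPM per kilobase in vector cells, 6.92 in p65 WT cells and 5.21 in p65 2CS cells. With vector it was followed by DDX58 (1.45), IFIH1 (0.928), IFIT3 (0.467), IFIT1 (0.420), DHX58 (0.281), IFIT2 (0.0588), OASL (0.0351), OAS1 (0.00329) and OAS2 (0.00284). With p65 WT the order of the receptors was exchanged, IFIH1 (2.94) standing above DDX58 (2.01), IFIT1 (1.52) and IFIT3 (1.01). With p65 2CS DDX58 (3.16) again stood above IFIH1 (1.73), IFIT1 (0.838) and IFIT3 (0.627). Neighbours whose libraries overlapped were IFIT3 and IFIT1, IFIT2 and OASL, and OAS1 and OAS2 with vector. With p65 WT they were OAS1 and OAS2, and OAS2 and OASL. With p65 2CS they were IFIT1 and IFIT3, DHX58 and IFIT2, and OAS2 and OAS1.

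The list of RIG-I-like signalling genes held few large changes. Of 16 genes of RIG-I-like signalling, all of them tested, 6 were higher and 2 lower with p65 WT against vector. These were 37.5% and 12.5%, beside 16.5% and 12.9% of all genes. The median log2 fold was 0.05, beside -0.02 over all genes tested. IKBKE, the inducible kinase of the pathway, was the 1 that changed at least 2-fold, from 3.99 to 28.4 CPM (log2 fold 2.84 ± 0.12, edgeR adjusted p = 9e-34). IRF7, the interferon-inducible factor, rose from 11.8 ± 1.05 to 19.4 ± 1.26 CPM (0.71 ± 0.09), and IRF3 from 52.3 ± 1.34 to 66.8 ± 6.21 CPM (0.36 ± 0.05). TANK, TRAF3 and TRIM25 were the other genes called higher, by 0.74, 0.22 and 0.22 on the log2 scale, and DDX3X and TRIM65 the lower ones, at -0.21 and -0.15. MAVS did not pass (-0.05 ± 0.03, adjusted p = 0.30), but was called lower under scaling by library totals and no TMM factor (-0.09, adjusted p = 0.027).

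With p65 2CS against vector 4 of the 16 were higher (IKBKE, IRF7, TANK and TRAF3) and 2 lower (DDX3X and MAVS). These were 25% and 12.5%, beside 12.3% and 11.7% of all genes, with a median of 0.11 beside 0. IRF7 reached 20.8 ± 2.17 CPM (log2 fold 0.82 ± 0.09, edgeR adjusted p = 4.7e-12) and IKBKE 7.97 CPM (0.99 ± 0.14, adjusted p = 2e-08), and IRF3 did not pass (-0.07 ± 0.05, adjusted p = 0.36). MAVS, the adaptor, had a log2 fold of -0.09 ± 0.03 (adjusted p = 0.041), and the call was lost without a filter, in DESeq2, or without any of vector libraries 1, 2 and 3 or p65 2CS libraries 7 and 8 (adjusted p of 0.06 to 0.16). Between the forms IKBKE was lower with p65 2CS, with a log2 fold of -1.85 ± 0.11, and so was IRF3 at -0.43 ± 0.05, while IRF7 did not pass (0.11 ± 0.09, adjusted p = 0.36, 95% interval -0.06 to 0.28). In all, 3 were higher and 5 lower between the forms, or 18.8% and 31.2% beside 13.7% and 18% of all genes.

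Among 17 other innate sensors, most of them of nucleic acids, 11 were tested. With p65 WT against vector 4 (36.4%) were higher, beside 16.5% of all genes, and 0 lower, with a median log2 fold of 0.11. The 1 large change was in NOD2, which is best known as a sensor of bacterial peptidoglycan, from 0.597 to 13.2 CPM (4.46 ± 0.22). Its vector libraries lay at 0.480, 0.538 and 0.773 CPM, and too few of them reached the filter's level of 0.558 CPM. NOD2 was therefore tested through the p65 groups alone. Its folds against vector, and its part in the counts against vector, are descriptions. The nucleic acid sensors called were DDX60, ADAR and DHX9, with log2 folds of 0.40, 0.22 and 0.11, and the DDX60 libraries overlapped those of vector. With p65 2CS against vector 4 (36.4%) were higher, beside 12.3% of all genes, and 0 lower. They were NOD2, ADAR, DHX9 and TMEM173, while DDX60 did not pass (edgeR adjusted p = 0.99). NOD2 reached 1.80 CPM (1.58 ± 0.28, a description). Between the forms 0 were higher and 3 (27.3%) lower, beside 18% of all genes lower, NOD2 with a log2 fold of -2.88 ± 0.18.

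Interferon genes had few reads or none. IFNB1, the interferon beta gene, had no read with vector or p65 WT and 0, 1 and 2 counts in the p65 2CS libraries. The limit that a total of 0 sets is 3 counts over a group, which is 0.0530 CPM for vector cells and 0.0616 CPM for p65 WT cells. IFNA1, IFNA2, IFNG and IFNK had no read in any library, and IFNL1 and IFNL3 had at most 5 counts in a group. STAT2, a factor of interferon signalling, did not pass in any comparison, at 47.7 ± 1.94, 47.6 ± 2.69 and 46.6 ± 2.90 CPM in vector, p65 WT and p65 2CS cells (edgeR adjusted p of 0.69 to 0.98), nor did IRF9, which was scarce at 0.712 ± 0.158, 1.19 ± 0.256 and 0.940 ± 0.0928 CPM (adjusted p of 0.15 to 0.52).

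IRF1, an NF-kB target whose product binds ISREs, ranged from 13.1 to 15.6 CPM in vector cells, from 57.4 to 59.3 CPM in p65 WT cells and from 30.5 to 31.1 CPM in p65 2CS cells. Its groups did not overlap and stood in the order seen for IFIH1, OAS3 and IFIT1, which 570 genes (3.13% of those tested) held by their calls. A link between IRF1 and these genes was not tested. Of 25 interferon and signalling genes 16 were tested. With p65 WT against vector 5 were higher (31.2%, beside 16.5% of all genes) and 0 lower (median log2 fold 0.13). With p65 2CS against vector 4 were higher (25%, beside 12.3% of all genes) and 0 lower (0.12). Between the forms 2 were higher and 3 lower (-0.03), or 12.5% and 18.8% beside 13.7% and 18% of all genes. IRF2, a relative of IRF1, rose with each form, by 0.82 ± 0.16 with p65 WT and 0.86 ± 0.15 with p65 2CS (edgeR adjusted p = 1.2e-05 and 6.3e-06).

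Other interferon-stimulated antiviral genes were mostly not called. Of 35, 31 were tested, and 9 were higher and 0 lower with p65 WT against vector, or 29% higher beside 16.5% of all genes, with a median log2 fold of 0.14. PARP14 (11.9 to 23.9 CPM), TRIM22 (1.57 to 3.49 CPM) and GBP1 (1.32 to 2.70 CPM) were those that changed at least 2-fold, by 1.01 ± 0.09, 1.15 ± 0.24 and 1.02 ± 0.27 on the log2 scale. ISG15, a ubiquitin-like modifier, lay at 8.67 ± 1.56, 8.36 ± 0.548 and 8.78 ± 1.75 CPM in the 3 groups and did not pass (edgeR adjusted p of 0.79 to 0.98). MX1, a GTPase that blocks viral particles, did not pass with p65 WT against vector (0.22 ± 0.27, adjusted p = 0.60). It was called with p65 2CS against vector (1.68 to 2.79 CPM, 0.73 ± 0.25, adjusted p = 0.023), a call lost without vector library 2 (0.45, adjusted p = 0.25) or p65 2CS library 7 (0.67, adjusted p = 0.08) or 9 (0.70, adjusted p = 0.057).

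With p65 2CS against vector 4 of the 31 were higher and 2 lower, with a median of 0.04. These were 12.9% and 6.45%, beside 12.3% and 11.7% of all genes. The 4 higher became 1 without vector library 2 or p65 2CS library 7. Between the forms 1 was higher and 10 were lower with p65 2CS, or 32.3% lower beside 18% of all genes, with a median of -0.14. The 1 higher gene was ISG20, an RNA exonuclease (0.55 ± 0.17, edgeR adjusted p = 0.0078). TRIM22 and GBP1 were lower, at -1.24 ± 0.24 and -1.36 ± 0.28.

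**Figure D4:**
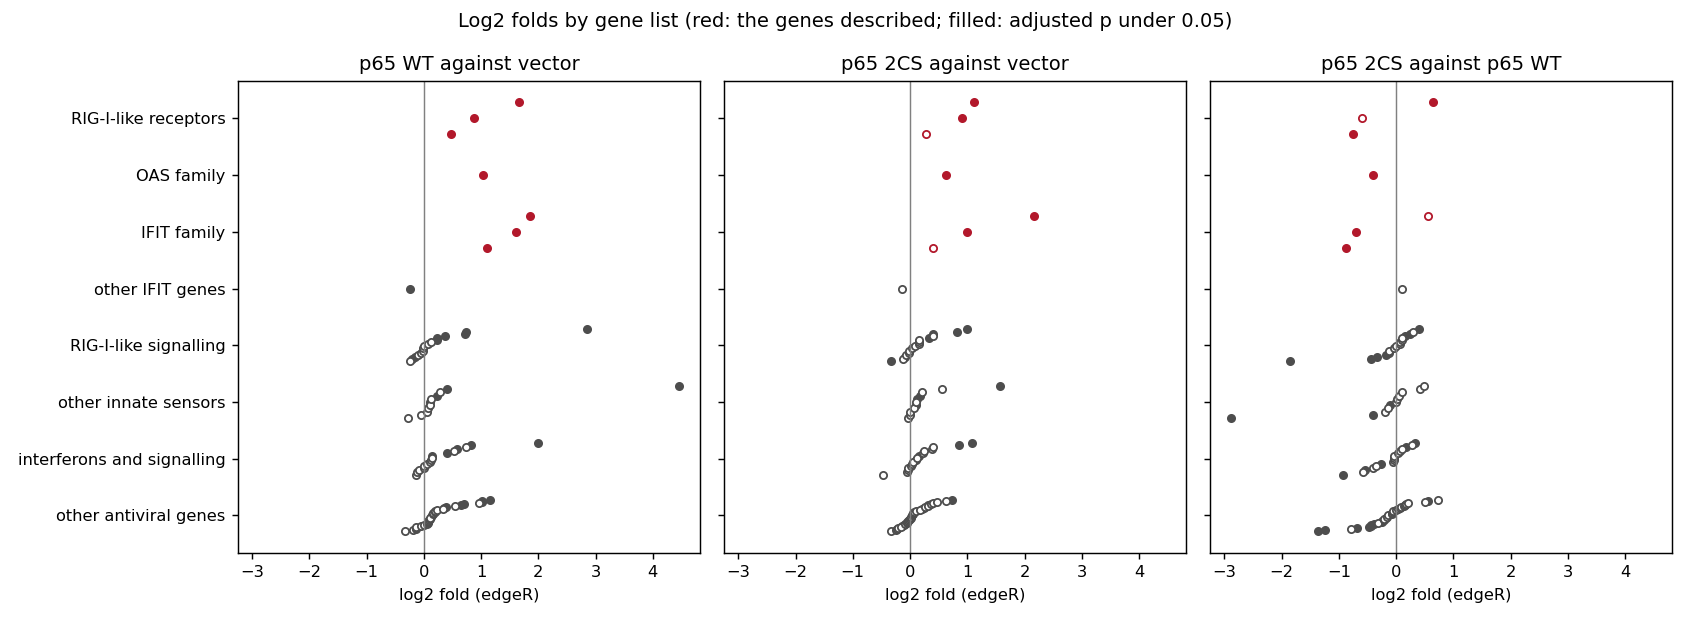
Log2 fold of every tested gene of 8 lists in the 3 comparisons (edgeR fit of all 9 libraries, same horizontal scale). The described genes are red and the genes around them grey. Filled points have an adjusted p under 0.05 (for IFIT2 and NOD2 against vector, a description). With p65 WT against vector the red points lie between 0.47 and 1.85, and the grey points IKBKE, IRF1 and NOD2 lie beyond them at 2.84, 2.00 and 4.46.

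For comparison, 7 established NF-kB target genes were listed. The list was chosen with earlier results of these data known, so the counts of its genes called are descriptions. With p65 WT against vector 7 of 7 were higher, beside 16.5% of all genes, with a median log2 fold of 3.12. With p65 2CS against vector 7 of 7 were higher, beside 12.3% of all genes, with a median of 2.11. ICAM1 and CCL20 lay below the filter's level in every vector library and were tested through the p65 groups alone. Their part in these counts and medians against vector is therefore a description. Between the forms 7 of 7 were lower with p65 2CS, beside 18% of all genes, with a median of -1.69. TNFAIP3, a feedback inhibitor, lay at 6.97, 216.4 and 48.6 CPM in vector, p65 WT and p65 2CS cells, and NFKBIA, which encodes the inhibitor of NF-kB, at 36.3, 316.5 and 110.4 CPM. The adhesion molecule gene ICAM1 lay at 0.246, 403.4 and 13.7 CPM, and the chemokine gene CCL20 at 0, 151.1 and 17.2 CPM.

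The genes whose profiles over the 9 libraries lay closest were found for DDX58, IFIH1, DHX58, OAS3, IFIT1 and IFIT3 by the root mean square distance of mean-centred log2 CPM among 13386 protein-coding genes with a mean of at least 1 CPM. IFIT2, OAS1, OAS2 and OASL were below that level and were left out. For IFIH1 they were TAP1 (0.0967), ARHGAP27 (0.116) and CSF1 (0.121). TAP1 lay at 26.8, 85.4 and 46.4 CPM in vector cells, p65 WT and p65 2CS, and was also near IFIT1 (0.183), whose nearest gene was IRF1 (0.157). For DDX58 the nearest was SLFN5 (0.124), at 13.5, 18.0 and 32.1 CPM in the same order, followed by PKD1L1 (0.143) and RND1 (0.174). For OAS3 they were APBA3 (0.0861), TLN2 (0.116) and ZNF460 (0.121). DHX58 and IFIT3 had more distant neighbours, DUSP18 at 0.156 and C19orf38 at 0.245. These distances describe 9 libraries that share their groups, and carry no test.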

How the data were processed

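Per the labels' protocols, mRNA was captured on poly-T beads and made into cDNA with random hexamers, in a kit described as either directional or not. Alignment used HISAT2 2.0.5 (per the submitters' processing notes). Counting tool, strand setting and build: not given in the sources used here. Raw counts were deposited by the authors for each gene, unnormalized, beside gene lengths. All 58735 gene identifiers matched GENCODE release 29 (GRCh38), the build of the positions printed.

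The deposited counts were filtered (18195 genes kept), scaled by TMM and fitted with a mean for each group across 9 libraries in edgeR 4.0.16 (R 4.3.3). Robust quasi-likelihood F tests were adjusted by Benjamini-Hochberg across every gene kept; calls have an adjusted p under 0.05. The code was tested on simulated data. CPM divides a count by its TMM-scaled library total. Intervals of log2 folds are approximate 95% intervals, not adjusted. Alternatives were DESeq2 1.42.0, library totals alone, no filter, RELA left out, fits of only the compared groups, and each library left out in turn.

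The members and lists were chosen with earlier results of these data known. Genes named from the lists were called with a log2 fold reaching 1 in either direction (at most 4 a list), plus 12 fixed genes, some of which are not reported here. Others named (TANK, ISG20, IRF2 and the like) were chosen after their values were seen.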

Additional observations from a re-analysis of the deposited data

How the results depend on the processing

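Over the 7 tested genes and 3 comparisons, 18 of 21 results kept their direction and their side of the threshold under every alternative that could be fitted (up to 14 each). The 21 include IFIT2 against vector with each form, where its folds are descriptions. Its result with p65 2CS against vector is counted among the 18. The other 3 kept their direction and lost the call in some: DHX58 and IFIT2 with p65 WT against vector, whose log2 folds ran from 0.61 to 1.01 and from 1.28 to 1.83, and IFIT3 between the forms, from -0.86 to -0.57. IFIT2, whose folds against vector are descriptions, was not tested in the fit of vector and p65 WT libraries alone, where it missed the filter. The counts of members called higher or lower, which include IFIT2, and the summed level of the 10 genes moved by less than 1.5 times and by less than 1 SD. Of 42 counts over the surrounding lists, 10 moved by more than 1.5 times in some alternative, among them the following. With p65 2CS against vector, the other antiviral genes called higher went from 4 to as few as 1 and those lower from 2 to between 1 and 3, RIG-I-like signalling genes called lower from 2 to 1, and the other IFIT genes from 0 to 1 lower. Between the forms, interferon signalling genes called higher went from 2 to as few as 0 without p65 WT library 4, RIG-I-like signalling genes from 3 to as few as 1 without p65 WT library 5, and other antiviral genes from 1 to as many as 3. With p65 WT against vector, RIG-I-like signalling genes called lower went from 2 to between 1 and 3 and interferon signalling genes from 0 to 1. The cause was not tested. Counts of 0 to 5 per library in OAS1, OAS2 and OASL, and of 2 to 26 in IFIT2, limit what depth can show. No paired analysis was possible because the groups share no replicate number.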
